A study of Mus musculus with 18 samples.

Results

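The 9 genes *G6pc*, *Pck1*, *Fbp1*, *Pcx*, *Gckr*, *Pklr*, *Tat*, *Sds* and *Gpt*, which carry hepatic glucose production and glucose sensing, were chosen by gene symbol and are 9 of the 21899 genes listed. All 9 were found, with 1 row each, and all are protein-coding. RNA was sequenced from liver, epididymal white adipose tissue (eWAT) and quadriceps (QU) muscle of wild-type male C57BL/6 mice at 18 weeks of age, with 3 libraries for each tissue and diet, 18 in all. Mice of the HSD group had eaten chow with 8% NaCl and drunk 0.9% saline for 12 weeks, and mice of the CON group had plain chow and tap water. Libraries are named here by mouse and by a letter for the tissue (L liver, W eWAT, M muscle): CON14L, CON16L and CON72L against HS2L, HS4L and HS5L in liver, CON16W, CON71W and CON72W against HS2W, HS3W and HS5W in eWAT, and the same mice as in eWAT for muscle. Whether the mice were fed or fasted when tissue was taken is not given in the sources used here. The question of each comparison was whether the diet changed the level of these transcripts in a tissue.

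Gluconeogenesis makes glucose from lactate, glycerol and amino acids, and in the fasted state most of it takes place in hepatocytes. Pyruvate carboxylase (*Pcx*) and phosphoenolpyruvate carboxykinase (*Pck1*) lead pyruvate past the irreversible step of pyruvate kinase (*Pklr*), fructose-1,6-bisphosphatase (*Fbp1*) acts further along the route, and glucose-6-phosphatase (*G6pc*) releases free glucose. The aminotransferases *Tat* and *Gpt* and the dehydratase *Sds* pass the carbon of tyrosine, alanine and serine into the pathway, while *Gckr* encodes a regulatory protein of the hepatocyte that restrains glucose phosphorylation when glucose is low. In white adipose tissue, *Pck1* and *Pcx* have another use, since they serve glyceroneogenesis and the supply of citrate for fatty acid synthesis. Glucagon, acting through cAMP, and glucocorticoids are known to raise *Pck1*, *G6pc* and *Tat*, while insulin and glucose are known to raise *Pklr*.

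Promoters are shown for *Pck1* and *Pklr*, the members with an unadjusted p under 0.05 by limma in liver, although neither passed the test across all genes. They are also shown for *G6pc* and *Gckr*, which kept a near-constant ratio from liver to liver. Both pairs were picked from the results given below. RefSeq promoters of GRCm38.p6, which run from 250 bases before a transcription start to 50 after it, were matched for 7 of the 9 genes (9 promoters), and *Sds* and *Gpt* are named only. Each is written on the sense strand, and capitals mark matches on either strand to TGACG (the core letters of the cAMP response element), GTTAAT (part of the site of HNF1) and CACGGG (the repeated letters of the carbohydrate response element known from *Pklr*, a motif added after the sequences had been seen). Of the 32851 promoters of this length, 20.8% held TGACG, 7.10% held GTTAAT and 10.1% held CACGGG, and the matches are descriptions, not proof of a site.
Pck1, chr2:173152823-173153122, plus strand: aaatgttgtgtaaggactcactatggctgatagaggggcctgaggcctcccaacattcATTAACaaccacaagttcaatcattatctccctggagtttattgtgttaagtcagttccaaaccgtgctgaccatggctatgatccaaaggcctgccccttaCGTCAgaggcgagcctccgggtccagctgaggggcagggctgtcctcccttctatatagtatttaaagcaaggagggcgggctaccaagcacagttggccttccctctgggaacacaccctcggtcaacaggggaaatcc
Pklr, the downstream start known from liver, chr3:89136373-89136672, plus strand: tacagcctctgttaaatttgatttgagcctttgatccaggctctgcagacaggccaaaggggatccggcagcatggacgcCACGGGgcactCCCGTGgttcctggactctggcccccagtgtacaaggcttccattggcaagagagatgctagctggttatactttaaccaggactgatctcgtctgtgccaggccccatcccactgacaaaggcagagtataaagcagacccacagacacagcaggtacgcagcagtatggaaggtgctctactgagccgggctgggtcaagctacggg
G6pc, chr11:101367466-101367765, plus strand: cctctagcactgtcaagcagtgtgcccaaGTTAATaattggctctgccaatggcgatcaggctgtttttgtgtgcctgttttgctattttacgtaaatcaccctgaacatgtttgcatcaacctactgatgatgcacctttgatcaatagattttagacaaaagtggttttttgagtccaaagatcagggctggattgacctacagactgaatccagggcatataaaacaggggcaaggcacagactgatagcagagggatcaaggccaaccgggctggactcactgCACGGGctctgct
Gckr, chr5:31297313-31297612, plus strand: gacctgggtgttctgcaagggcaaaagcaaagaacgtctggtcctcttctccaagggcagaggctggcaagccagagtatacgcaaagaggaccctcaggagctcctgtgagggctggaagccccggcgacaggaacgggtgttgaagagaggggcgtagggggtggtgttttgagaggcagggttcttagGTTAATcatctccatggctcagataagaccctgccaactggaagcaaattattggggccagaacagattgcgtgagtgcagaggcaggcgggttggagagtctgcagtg
In this window, *Pck1* held TGACG on the minus strand at 90 bases before the start and GTTAAT on the minus strand. The *Pklr* window held CACGGG once on each strand, with 5 bases between the matches. *G6pc* and *Gckr* each held GTTAAT on the plus strand, at 221 and at 59 bases before the start, and *G6pc* also held CACGGG after the start. The forkhead letters TGTTTAC, present in 3.65% of all promoters, were found in none of the 9 promoters, and the E-box CACGTG, present in 7.15%, was found in the upstream promoter of *Pcx* alone. Deposited values are per gene and do not separate the starts of *Pklr* or of *Pcx*.

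In the mouse genome (mm10), *G6pc* lies at chr11:101367561-101377903, *Pck1* at chr2:173153048-173159273, *Fbp1* at chr13:62864753-62888282, *Pcx* at chr19:4510472-4621752, *Gckr* at chr5:31297443-31327314, *Pklr* at chr3:89136142-89146784, *Tat* at chr8:109990437-109999803, *Sds* at chr5:120476526-120483932 and *Gpt* at chr15:76695716-76699686, all on the plus strand except *Fbp1*.

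The tissue labels were checked against marker genes, and some libraries stood apart. Recovered fragments numbered between 7628071 and 16637489 per library. In liver, the share of fragments on mitochondrially encoded genes was 60.9%, 25.7% and 37.9% in CON14L, CON16L and CON72L and 16.3%, 15.4% and 44.4% in HS2L, HS4L and HS5L, and CON14L had the lowest summed level of 15 hepatocyte markers (21060 FPKM, against 46135 to 104618 in the other livers). CON16L carried 4365 FPKM of 10 skeletal muscle markers, against 1.85 to 4.88 in the other livers, and HS3W carried 18645 FPKM of 10 epididymal epithelium markers, against at most 13.4 in the other eWAT libraries. CON16L, HS5L and HS5W are not in the table of reads of the study, which lists 15 libraries. In all of these bulk samples, fewer cells of a type and less RNA per cell cannot be told apart.

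In liver, *Pck1* was higher and *Pklr* was lower in every HSD mouse than in any CON mouse, so that the differences had opposite signs for the enzyme that makes phosphoenolpyruvate and the enzyme that uses it up. Neither passed the test across all genes. A call needed a Benjamini-Hochberg adjusted p under 0.05 by limma together with a log2 fold change, on log2(FPKM + 0.5), of 1 or more in either direction. None of the 9 genes, and 0 of the 10317 genes tested in liver, was called (percent called 0), while 592 genes (5.74%) had an unadjusted p under 0.05. Of the 9 genes, 2 (*Pck1* and *Pklr*) were among the 592. Of the 9 genes, 3 (*Pck1*, *Tat* and *Pklr*) separated the diets without overlap, which 12.1% of the tested genes did, 8.62% with HSD above and 3.47% with HSD below.

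*Pck1*, whose product commits oxaloacetate to glucose, had 839.6 FPKM in CON14L, 1079 in CON16L and 879 in CON72L, and 1844, 2201 and 1981 in HS2L, HS4L and HS5L. The lowest HSD liver was well above the highest CON liver. The means were 933 ± 129 FPKM in CON and 2009 ± 179.9 in HSD (SD, n = 3 each), a ratio of 2.15. The log2 fold change was 1.11 (SE 0.41, 95% interval 0.15 to 2.07, unadjusted p = 0.0289, adjusted p = 0.764 by limma). When the mitochondrially encoded genes were left out and FPKM rescaled, the log2 fold change was 0.74, and *Pck1* still ran from 1415 to 2146 in CON and from 2203 to 3565 in HSD, without overlap.

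*Pklr*, the pyruvate kinase of liver and the glycolytic counterpart of *Pck1*, showed 18.0, 11.5 and 23.8 FPKM in the CON livers in the same order and 5.46, 7.74 and 6.36 in the HSD livers. All 3 HSD values were below all 3 CON values. The means were 17.8 ± 6.19 and 6.52 ± 1.15 FPKM, and the log2 fold change was -1.33 (SE 0.33, 95% interval -2.11 to -0.55, unadjusted p = 0.00465, adjusted p = 0.764 by limma). The values rest on at least 176 fragments per library. Without the mitochondrially encoded genes the log2 fold change was -1.72 and the groups were again apart. With limma's array weights both genes were called (adjusted p = 9.2e-05 for *Pck1* and 1.7e-05 for *Pklr*), as were 926 of the 10317 genes, and all 9 members then had an adjusted p of 0.0232 or less. The estimate of these weights did not converge, and it set HS2L at 35.4 and CON72L at 8.19 against 0.165 to 0.428 for the other livers. Over the 15 libraries of the study's table the adjusted p was 0.281 and 0.0587. Without CON16L alone, the liver that held the muscle markers, *Pck1* had a log2 fold change of 1.22 and *Pklr* one of -1.61 (adjusted p = 0.506 by limma for both).

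Because a ratio of 2 genes within a library does not depend on its scaling, the 36 ratios among the 9 genes were taken in each liver. *Pck1* over *Pklr* was 46.7, 94.0 and 36.9 in CON14L, CON16L and CON72L and 338, 284 and 311 in HS2L, HS4L and HS5L. The lowest HSD liver was far above the highest CON liver, and the SD of this ratio over the livers on the log2 scale, 1.45, was the highest of the 36. The ratios are not independent of each other or of the single genes, and since *Pck1* and *Pklr* were already apart singly, this one restates them. *Pck1* over *Pcx* was the 1 ratio without *Pklr* in which CON and HSD livers were apart, at 23.9 to 38.0 in CON and 41.8 to 58.7 in HSD.

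**Figure D1:**
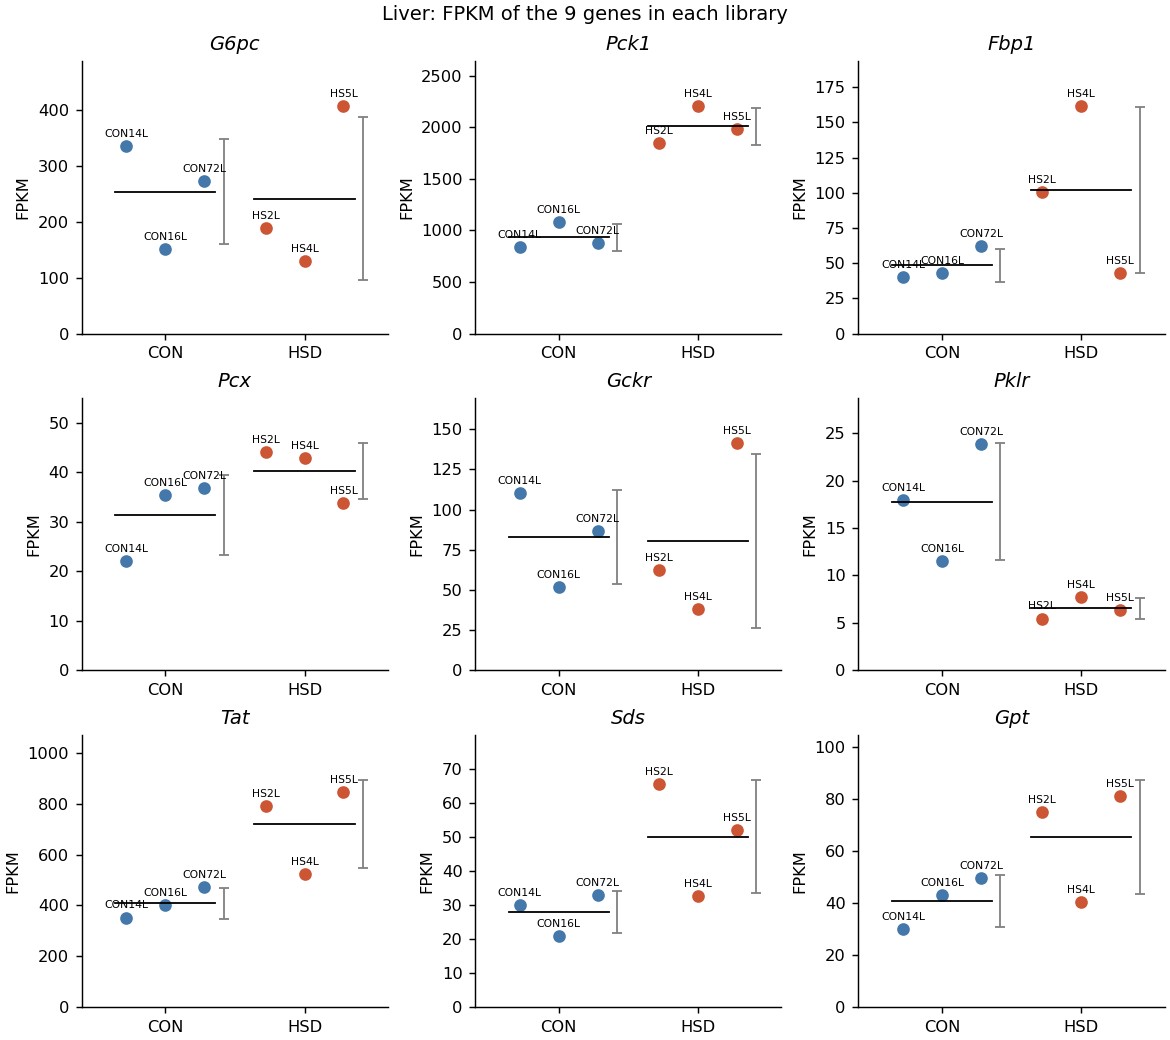
FPKM of each gene in the 6 liver libraries (points, named by library), with the mean (black line) and the SD (grey bar) of the CON and HSD groups. *Pck1* was between 839.6 and 1079 in CON and between 1844 and 2201 in HSD, *Pklr* was below the CON range in every HSD liver, and *G6pc* and *Gckr* spread widely within both groups.

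The genes of amino acid entry had higher means in HSD livers, with overlap between the diets for *Sds* and *Gpt*. *Tat*, which takes the amino group from tyrosine, had 353, 400.4 and 472 FPKM in CON14L, CON16L and CON72L and 792, 525 and 849 in HS2L, HS4L and HS5L. The groups did not overlap, yet the log2 fold change of 0.80 (SE 0.42) had an adjusted p of 0.764 by limma, and the groups did overlap once the mitochondrially encoded genes were left out (539 to 901 and 620.3 to 1528 FPKM). *Sds*, serine dehydratase, had 29.9, 20.8 and 32.8 FPKM against 65.6, 32.5 and 52.0, where HS4L lay just inside the CON range. *Gpt*, the alanine aminotransferase, had 29.9, 43.1 and 49.4 FPKM against 74.8, 40.4 and 80.9, and again HS4L lay inside the CON range. The log2 fold changes were 0.80 (SE 0.39) for *Sds* and 0.64 (SE 0.41) for *Gpt*. With the mitochondrially encoded genes left out, they fell to 0.43 for *Tat*, 0.43 for *Sds* and 0.27 for *Gpt*. *Tat* over *Gpt* stayed between 9.29 and 13.0 in all 6 livers.

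The remaining enzymes of the route overlapped between the diets. *G6pc*, the last step, had 335, 151 and 273 FPKM in CON and 189, 129 and 406 in HSD (log2 fold change -0.16, 95% interval -1.48 to 1.16), so that the highest and the lowest of the 6 livers were both HSD. *Fbp1* had 40.4, 43.1 and 61.8 FPKM in CON and 101, 161 and 43.1 in HSD (log2 fold change 0.89, 95% interval -0.34 to 2.13). HS2L and HS4L were above every CON liver, and HS5L was at the level of CON16L. *Pcx*, the entry of pyruvate, had 22.1, 35.5 and 36.8 FPKM in CON and 44.1, 42.8 and 33.7 in HSD, with a log2 fold change of 0.38 (SE 0.34). With the mitochondrially encoded genes left out, the log2 fold change was -0.54 for *G6pc*, 0.52 for *Fbp1* and 0.0072 for *Pcx*.

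*Gckr*, the regulator of glucose sensing, followed *G6pc* closely in liver. It had 110, 51.7 and 86.6 FPKM in CON14L, CON16L and CON72L and 62.2, 38.1 and 141 in HS2L, HS4L and HS5L, with a log2 fold change of -0.18 (SE 0.56). *G6pc* over *Gckr* was between 2.87 and 3.38 in all 6 livers, while *G6pc* alone ranged over 3.15 times and *Gckr* over 3.71 times. Of the 36 ratios this one had the smallest SD on the log2 scale (0.085). The 3 livers with the highest mitochondrial share (CON14L, CON72L and HS5L) held the 3 highest values of both genes, and their part in the pattern was not tested. *Fbp1* had its 2 highest values in HS4L and HS2L, which had the lowest mitochondrial share and are both HSD, so diet and share cannot be told apart there. CON16L, next in share at 25.7%, had 43.1 FPKM of *Fbp1*, below the 61.8 of CON72L at 37.9%.

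**Figure D2:**
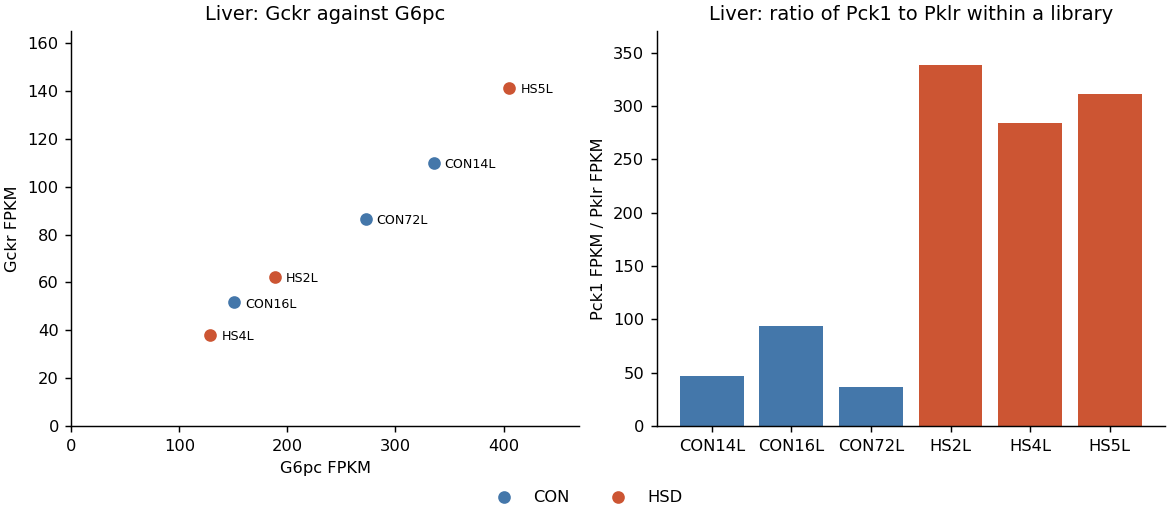
Left, *Gckr* FPKM against *G6pc* FPKM in the 6 livers (points, coloured by diet): CON and HSD livers lay along one line through a range from HS4L to HS5L. Right, *Pck1* FPKM divided by *Pklr* FPKM in each liver (bars): 36.9 to 94.0 in CON and 284 to 338 in HSD.

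The livers also differed in their markers of cell types. Of the 15 hepatocyte markers, 13 were higher in HSD liver, with a median log2 fold change of 0.98 against 0.13 for all genes tested, none was called, and their groups overlapped for 14 of 15. Set per 1000 FPKM of summed hepatocyte markers, *Pck1* was 11.1 to 39.9 in CON and 17.9 to 42.9 in HSD, and *Pklr* 0.119 to 0.854 and 0.0530 to 0.138, so that each then overlapped. All 6 periportal markers were higher in HSD liver (median 0.80) and 5 of 7 pericentral markers (median 0.14), with none called in either list. The summed level of 6 macrophage markers was 22.4 to 37.5 FPKM in CON and 9.502 to 15.5 in HSD, without overlap, and all 5 blood markers were lower in HSD (median log2 fold change -1.85, none called), with 5626 FPKM in CON16L against 237 to 842 in the other livers. The part of these markers in the values of *Pck1* and *Pklr* was not tested. Among the 3 livers of high mitochondrial share (37.9% to 60.9%), *Pck1* was 839.6 and 879 in CON and 1981 in HSD, and among the other 3 it was 1079 in CON and 1844 and 2201 in HSD. *Pklr* was 18.0 and 23.8 in CON against 6.36 in HSD within the first of these sets, and 11.5 in CON against 5.46 and 7.74 in HSD within the second. Since both genes were apart over all 6 livers, any such grouping gives the same direction. The part of the mitochondrial share was not tested.

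Other genes of the pathway were read from 4 lists. Of the 16 tested genes of the gluconeogenic route and glucose output, 13 were higher in HSD liver and 0 were called (median log2 fold change 0.40). The extremes were -0.70 for *G6pc3*, the widely expressed glucose-6-phosphatase, and -0.19 for *Got1*, against 1.22 for *Mpc2*, a subunit of the mitochondrial pyruvate carrier. Of 15 genes of glucose sensing and glycogen, 9 were higher and 0 called (median 0.11), from -0.50 for *Mlxipl*, which encodes the glucose-responsive factor ChREBP, and -0.46 for *Tkfc* to 1.04 for *Ugp2*. Of 18 genes of hormonal and transcriptional control, 15 were higher and 0 called (median 0.25), from -0.50 for *Pdk4* and -0.11 for the glucagon receptor *Gcgr* to 0.91 for *Klf15*, a factor known to raise amino acid catabolism, and 1.39 for *Igfbp1*, a gene known to be held down by insulin. None of these genes passed the test, and their adjusted p by limma was at least 0.764. Taken as a whole, the genes tested in liver had a median of 0.13. It became -0.20 once the mitochondrially encoded genes were left out and FPKM rescaled. The liver counts and medians of all 4 lists are from the scaling that keeps those genes, so they are to be read against that shift.

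Amino acid carbon entry was the pathway list with the highest median in liver, 0.77, below the medians of the hepatocyte markers (0.98) and the periportal markers (0.80). Of its 21 genes, 19 were higher in HSD liver, 0 were called and 5 had an unadjusted p under 0.05 (5.74% of all genes did). The extremes were -0.34 for *Slc38a3*, a glutamine carrier, and -0.01 for *Prodh* against 1.53 for *Agxt*, alanine-glyoxylate aminotransferase, and 1.87 for *Cth*, cystathionine gamma-lyase. In 10 of the 21 all HSD livers were above all CON livers, against 8.62% of all genes. One of the 10 was *Sdsl*, a relative of *Sds*, with 5.15 ± 0.93 FPKM in CON and 13.0 ± 3.90 in HSD (SD, n = 3 each).

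In eWAT, *Gpt* and *Pcx*, which were well expressed there, had lower levels in every HSD library than in any CON library, and the *Pck1* values of the diets overlapped. None of the 7 tested members and 0 of the 13740 genes tested was called (percent called 0), and 2298 genes (16.7%), 3 members among them (*G6pc*, *Tat* and *Gpt*), had an unadjusted p under 0.05. Without overlap between the diets were 28.6% of the genes tested, 16.2% with HSD above and 12.4% with HSD below, and 4 of the 7 tested members (*G6pc*, *Pcx*, *Tat* and *Gpt*), each with HSD below. *Gpt* had 67.2, 77.9 and 83.3 FPKM in CON16W, CON71W and CON72W and 31.1, 14.9 and 44.6 in HS2W, HS3W and HS5W, a log2 fold change of -1.45 (SE 0.39, adjusted p = 0.186 by limma). Without HS3W, which held the epididymal markers, it was -1.02 with an adjusted p of 0.0321 and was called.

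*Pcx* had 249, 264 and 301 FPKM in CON eWAT and 177, 75.6 and 207 in HSD eWAT, where HS3W was far below HS2W and HS5W. The log2 fold change was -0.94 (SE 0.39, adjusted p = 0.303 by limma), and without HS3W it was -0.50 (adjusted p = 0.0588). *Pck1* had 723, 542 and 535 FPKM in CON and 930.2, 319 and 794 in HSD, with a log2 fold change of 0.06 (95% interval -1.02 to 1.13). HS3W again was lowest, and without it the log2 fold change was 0.53. The summed level of 8 adipocyte markers was 7194 FPKM in HS3W and 16945 to 23426 in the other eWAT libraries. Per 1000 FPKM of these markers, *Gpt* was 3.72 to 4.87 in CON and 1.41 to 2.08 in HSD and *Pcx* 13.8 to 17.6 and 8.02 to 10.5, both without overlap, while *Pck1* was 31.2 to 40.0 and 33.9 to 44.4.

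The other members in eWAT were at low levels, and *Tat*, *G6pc* and *Gckr*, best known from hepatocytes, had lower values in every HSD library. *Tat* had 2.88, 4.77 and 1.899 FPKM in CON and 0.457, 0.135 and 0.191 in HSD, which were 111, 174 and 76 fragments against 15, 4 and 6. All HSD values were below all CON values, and the log2 fold change was -2.22 (SE 0.35, adjusted p = 0.114 by limma). Without HS3W it was -2.10 with an adjusted p of 0.0321, which was called. *G6pc* had 1.37, 3.50 and 1.17 FPKM in CON and 0.85, 0.573 and 0.317 in HSD (log2 fold change -1.13, SE 0.40, adjusted p = 0.257 by limma), and *Gckr*, which was under the mean of 0.5 FPKM needed for a test, had 0.345, 0.807 and 0.333 against 0.0507, 0.244 and 0.0529. *Fbp1*, *Pklr* and *Sds* overlapped, and their HSD values included one of 7.06 FPKM for *Fbp1* in HS2W and one of 2.26 for *Pklr* in HS3W, the highest of the 6 libraries in each case.

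Hepatocyte transcripts were present in eWAT at a low level that differed between the diets. The median of 15 hepatocyte markers was 0.698%, 1.13% and 0.42% of the CON liver level in CON16W, CON71W and CON72W and 0.0525%, 0.0245% and 0.0341% in HS2W, HS3W and HS5W, and 14 of the 15 markers were lower in every HSD library, with a median log2 fold change of -3.05 and none called. The exception was *Cyp2e1* (log2 fold change 0.49), and the summed level of the 15, which includes it, overlapped between the diets (2328 to 3075 FPKM in CON and 1032 to 3589 in HSD). *Tat* was at 0.705%, 1.17% and 0.465% of its own CON liver level in the CON libraries, which is 1.01 to 1.11 times the markers, and at 0.112%, 0.0331% and 0.0467% in the HSD libraries, 1.35 to 2.13 times the markers. *G6pc* was at 0.776 to 1.22 times the markers in CON and at 3.67 to 9.23 times in HSD. *Fbp1* and *Pklr* stood above the markers, at 1.95% to 14.6% and 2.79% to 12.7% of their liver level over the 6 libraries, and *Pck1*, *Gpt* and *Pcx* far above, at 34.2% or more. In the pathway lists, 9 of 16, 5 of 13, 5 of 16 and 12 of 17 tested genes of the route, glucose sensing, amino acid entry and hormonal control were higher in HSD eWAT, and 0 were called. For *Tat*, *G6pc* and *Gckr*, the part of the hepatocyte signal in the difference between the diets was not tested.

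**Figure D3:**
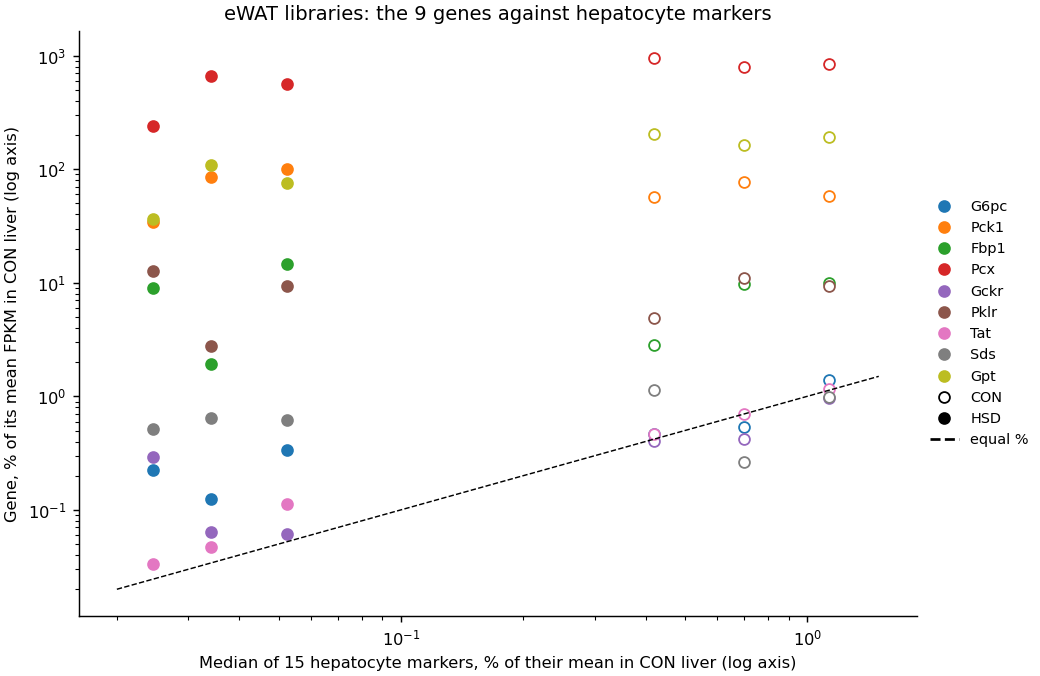
Each gene in each eWAT library as a percent of its mean FPKM in CON liver (vertical, log axis) against the median percent of 15 hepatocyte markers in that library (horizontal, log axis), with open points for CON, filled points for HSD and a dashed line where the percents are equal. *Tat* stayed near the line from 0.0331% to 1.17%, while *Pcx*, *Gpt* and *Pck1* lay at 34.2% or more in every library.

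In QU muscle only *Pcx*, *Gpt* and *Pck1* reached the mean of 0.5 FPKM needed for a test, and *Gpt* was lower in HSD. It had 8.34, 9.19 and 9.51 FPKM in CON16M, CON71M and CON72M and 5.13, 5.50 and 4.69 in HS2M, HS3M and HS5M. The groups lay clearly apart, at 9.01 ± 0.61 and 5.11 ± 0.41 FPKM (SD, n = 3 each). The log2 fold change was -0.76 (SE 0.12, 95% interval -1.03 to -0.50) with an adjusted p of 0.0265 by limma, which passed the p threshold but not the fold threshold, so that 0 of the 3 tested members were called. Of the 10834 genes tested 35 were called (0.323%, with 0.102% higher and 0.222% lower), or 54 with the replicate number as a block. At an unadjusted p under 0.05 were 16.3% of the genes and, of the 3 members, *Gpt*, and 22.3% had no overlap, 6.72% with HSD above and 15.6% with HSD below. Leaving out each library in turn gave adjusted p between 0.0261 and 0.121 for *Gpt*, over the threshold in 5 of 6 cases.

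*Pcx* in muscle had 23.6, 20.4 and 18.8 FPKM in CON and 25.6, 19.1 and 22.9 in HSD, with overlap and a log2 fold change of 0.10 (95% interval -0.22 to 0.42). *Pck1* had 4.78, 9.97 and 2.66 FPKM in CON and 3.53, 12.8 and 11.2 in HSD (log2 fold change 0.61, 95% interval -0.49 to 1.71). These were 0.444% to 2.13% of the *Pck1* level in CON eWAT, beside a median of 0.223% to 0.999% for the 8 adipocyte markers in the same libraries, and the part of adipocytes in this level was not tested. The 6 other members had between 0 and 16 fragments in a muscle library. *Sds* had exactly 1 fragment in each of the 6 muscle libraries, and *Pklr* had 1 fragment in CON71M, 2 in HS2M and 0 in the other 4, where 0 allows up to 3 fragments, or 0.0696 to 0.0829 FPKM. This limit covers counting error only. Of the 4 pathway lists, 14, 11, 11 and 14 genes were tested in muscle for the route, glucose sensing, amino acid entry and hormonal control, and 3, 3, 6 and 10 of them were higher in HSD. *Slc38a2*, an amino acid carrier, was the 1 list gene called in muscle, at 17.3 ± 0.99 FPKM in CON and 41.6 ± 8.58 in HSD (log2 fold change 1.23, SE 0.16, adjusted p = 0.0157 by limma).

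**Figure D4:**
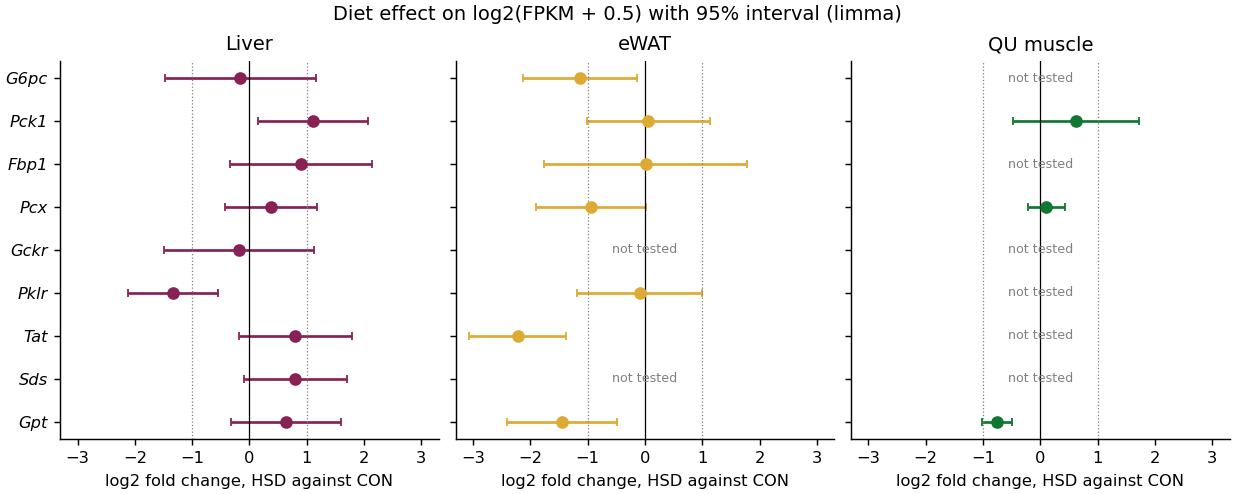
Log2 fold change of HSD against CON on log2(FPKM + 0.5) for each gene and tissue (points) with its 95% interval from limma (bars), and dotted lines mark a log2 fold change of 1 in either direction. The interval lies above 0 for *Pck1* and below 0 for *Pklr* in liver, below 0 for *G6pc*, *Tat* and *Gpt* in eWAT, and below 0 for *Gpt* in muscle.

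The effect of the diet was then compared between tissues in 1 model of all 18 libraries. *Tat* was the 1 member called for liver against eWAT, with a difference between the log2 fold changes of 3.02 (SE 0.44, adjusted p = 0.00534 by limma), made of 0.80 in liver and -2.22 in eWAT. Of the 13067 genes tested 99 were called (0.758%, with 0.689% higher and 0.0689% lower in liver), and the eWAT side of the *Tat* value moved with the hepatocyte markers given above, of which 5 of 15 were called too. *Gpt* had a difference of 2.09 (SE 0.47, adjusted p = 0.054 by limma), which was called in 5 of 27 alternatives, and *Pcx* one of 1.32 (SE 0.45, adjusted p = 0.214 by limma). *Pklr* alone of the 9 had a negative difference, -1.24 (SE 0.46, adjusted p = 0.255 by limma). Of the amino acid entry list, 6 of 21 genes were called, all with the higher effect in liver (among them *Sdsl*, *Hal*, *Hpd*, *Hgd* and *Gls2*, with 2.59 for *Sdsl* and 2.40 for *Hpd*), and *Gys2*, the glycogen synthase of liver, had 2.65. Only 16 of the 21 reached the mean needed for a test in eWAT. The hepatocyte markers went the same way, 15 of 15 higher with a median of 3.50. Their part in the values of these genes was not tested. Between liver and muscle, 0 members and 8 genes (0.0612%, with 0.0383% higher and 0.023% lower in liver) were called. The widest differences there were those of *Gpt* (1.40, SE 0.47, adjusted p = 0.429 by limma) and *Pklr* (-1.35, SE 0.46, adjusted p = 0.441 by limma). *Pklr* had 0 to 2 fragments in a muscle library, so its difference is nearly the liver value alone (-1.33). Of the members, only *Pcx*, *Gpt* and *Pck1* reached the mean needed for a test in muscle itself.

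Across the tissues of CON mice, the 9 genes fell into different orders. Since the list was chosen as genes known from liver, a higher level there is a description of the choice. FPKM is scaled by gene length, and levels are compared on that scale. *G6pc* was 253 ± 93.8 FPKM in liver, 2.01 ± 1.29 in eWAT and 0.0590 ± 0.0725 in muscle (SD, n = 3 each), and *Tat* 408 ± 59.9, 3.18 ± 1.46 and 0.334 ± 0.273. *Gckr*, *Fbp1*, *Pklr* and *Sds* had the same order, and for *Gckr* and *Sds* the difference between eWAT and muscle was not called (0.86 and 0.38). With a pseudocount of 0.1 it was 2.11 and 1.01 and called for both, but both genes were under the mean of 0.5 FPKM in eWAT and in muscle. In CON eWAT and CON muscle *Gckr* had 24 to 53 and 0 to 6 fragments, and *Sds* 2 to 9 and 1, so these values hang on the pseudocount. Between CON liver and CON eWAT 7 of the 9 were called, 6 higher and 1 lower in liver (percent called 67.4, with 7.02 higher and 60.4 lower), between liver and muscle 8 of 9 were called, all higher in liver (48.4, with 14.5 higher and 33.9 lower), and between eWAT and muscle 7 of 9, all higher in eWAT (53.3, with 45.4 higher and 7.84 lower). Of these 7, *G6pc*, *Fbp1*, *Pklr* and *Tat* were under the mean needed for a test in muscle, with at most 4, 4, 1 and 16 fragments in a CON library. In CON eWAT *G6pc* and *Tat* were at 0.776 to 1.22 and 1.01 to 1.11 times the hepatocyte markers, whose part was not tested.

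*Pcx* and *Gpt*, which were highest in eWAT, departed from this order, while *Pck1* followed it with liver and eWAT not called apart. *Pcx* was highest in eWAT, at 272 ± 26.8 FPKM against 31.4 ± 8.13 in liver and 20.9 ± 2.43 in muscle, a log2 difference of -3.12 for liver against eWAT (SE 0.32, adjusted p = 2.1e-07 by limma), and the difference between liver and muscle was not called (0.55, SE 0.32), but was 1.19 with median-ratio scaling and 1.14 without mitochondrial genes, and called in both. *Pck1* was 933 ± 129 FPKM in liver, 599.6 ± 107 in eWAT and 5.80 ± 3.76 in muscle. Its log2 difference between liver and eWAT of 0.64 (95% interval -0.41 to 1.70) was not called, but was 2.28 with median-ratio scaling and 1.40 without mitochondrial genes, and called in both. *Gpt* was 76.2 ± 8.20 FPKM in eWAT, 40.8 ± 9.97 in liver and 9.01 ± 0.61 in muscle, and its log2 difference of -0.92 between liver and eWAT turned to 0.70 with median-ratio scaling. The median log2 difference of all genes between CON liver and CON eWAT was -1.33, so these values are also to be read against that shift.

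**Figure D5:**
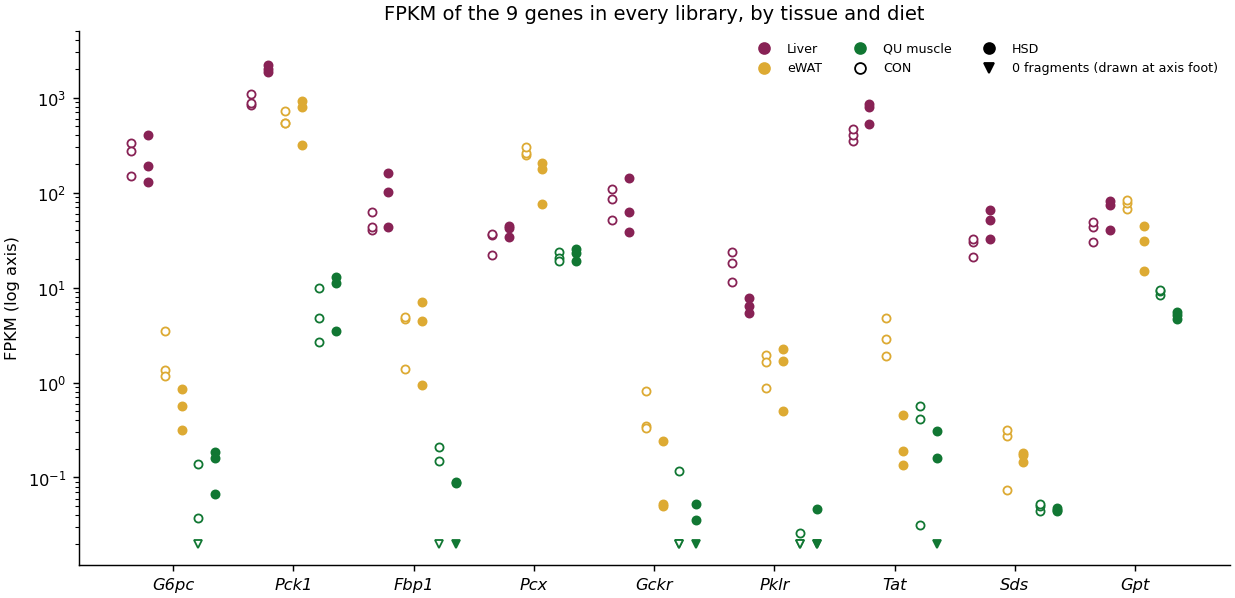
FPKM (log axis) of each gene in all 18 libraries, coloured by tissue, with open points for CON and filled points for HSD, and triangles at the foot stand for libraries with 0 fragments. *Pcx* was highest in eWAT, *Pck1* was high in liver and eWAT, and *Sds* was at 1 fragment in every muscle library.

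The genes most like *G6pc*, *Pck1* and *Pcx* over the 18 libraries were found by Pearson's r of log2(FPKM + 0.5), which here rests mostly on the contrast between tissues. For *G6pc* they were *Itih3* (0.996), *F7* (0.996) and *Abcg5* (0.996), each with a mean of at most 1.12 FPKM outside liver. For *Pck1* they were *Ces1f* (0.993), *Slc6a13* (0.990) and *Gsta3* (0.987), all high in liver and eWAT. *Cdc42ep1* (0.984), *Mpp1* (0.984) and *Abhd15* (0.982) were most like *Pcx*, with means of 62.0, 27.6 and 8.30 FPKM in eWAT against 9.94, 4.33 and 0.692 in liver.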

How the data were processed

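Ribosomal RNA-depleted total RNA of 18 libraries was sequenced in pairs. According to the study, reads were aligned to mm10 with HISAT2 and FPKM came from cuffdiff, while the processing notes of the submitters also name HTSeq 0.9.1 and mm9. Which tool gave the deposited FPKM values is not settled here. FPKM is scaled to length and to the library, so a gene that takes a large share of a library lowers the others. Whole fragments were recovered from FPKM with GENCODE M21 exon lengths for 18317 of 18776 genes (within 0.01 fragment), giving the depth. Tests used limma 3.58.1 in R 4.3.3 (eBayes with trend) on log2(FPKM + 0.5) and covered genes that averaged 0.5 FPKM or more over the libraries fitted. A fold change on this scale understates that of low genes. Diet was tested within each tissue, and differences between tissues in 1 model of 18 libraries. The methods of the study name a count test, which was not used as the main test on FPKM. Named genes were the 9 members, the 2 highest and 2 lowest of each list in liver, the called list genes, and the 3 genes most like *G6pc*, *Pck1* and *Pcx*. Other genes were chosen after their values were seen. Some genes that this rule names are not reported here. Members and lists were chosen with earlier results of these data known. The 3 libraries of a group come from separate mice. In muscle, libraries of the same replicate number deviated together (r = 0.383, 0.177 and 0.184), so the number was also used as a block. Scripts were tested on simulated data.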

Additional observations from a re-analysis of the deposited data

Results flagged for a closer look

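*Tat* differed between tissues in its response to the diet by a test of the difference itself, 3.02 on the log2(FPKM + 0.5) scale (adjusted p = 0.00534 by limma). In liver it had 353 to 472 FPKM in CON and 525 to 849 in HSD, and in eWAT 1.899 to 4.77 in CON and 0.135 to 0.457 in HSD. The difference was called in all 27 alternatives, between 2.47 and 3.99, with adjusted p by limma between 0.0039 and 0.0392. Not all of these could change it. Those that left out a muscle library kept the estimate at 3.02, since muscle is not in this contrast. The call by adjusted p alone used the same fit with a looser rule. The hepatocyte markers moved in the same direction, with a median difference of 3.50 and 5 of 15 called (*Apoa1*, *Ahsg*, *Fgb*, *Serpina1b* and *Cps1*), and their part in the value of *Tat* was not tested.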

How the results depend on the processing

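Groups of 3 libraries, some of which stand apart, limit these comparisons. Depth limits muscle, where 6 members had at most 16 fragments in any library. The cause of each change given here was not tested. In liver, 0 genes were called, but 926 with limma's array weights (whose estimate did not converge), 41 with all tissues in 1 fit, 35 over the 15 libraries of the study's table, and 0 to 1 when single libraries were left out. With array weights 2 of the 9 members (*Pck1* and *Pklr*) were called. In eWAT, 0 genes were called, but 220 with array weights, 161 with 1 fit and 0 to 160 with single libraries left out. Members called there were 2 (*Tat* and *Gpt*) with array weights, 2 with 1 fit and 0 to 2 with single libraries left out. In muscle, 35 genes were called, but 7 with no filter, 97 by adjusted p alone, 5 with 1 fit, 63 by limma voom on recovered fragments (chosen after seeing the data) and 10 to 61 with single libraries left out. The member *Gpt* was the 1 called by adjusted p alone. A replicate block gave 54 called genes in muscle, and it changed no other call of a member. Numbers did not pair liver (r from -0.473 to 0.396) or eWAT (-0.197 to 0.414), and same-mouse libraries of different tissues had r from -0.164 to 0.114.

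For the diet effect in liver against eWAT, 99 genes were called, but 43 with median-ratio scaling, 53 without mitochondrial genes, 2455 over the 15 libraries and 37 to 544 with single libraries left out. Of the members, 4 (*Pcx*, *Pklr*, *Tat* and *Gpt*) were called over the 15 libraries and 1 to 3 with single libraries left out. Against muscle, 8 genes were called, but 5 with a pseudocount of 0.1, 4 without mitochondrial genes, 1286 over the 15 libraries and 1 to 59 with single libraries left out, and 1 member (*Pklr*) over the 15 libraries. *Pklr* had at most 2 fragments in any muscle library. For CON liver against eWAT, 8809 genes were called, 5215 with median-ratio scaling and 8599 to 8996 with single libraries left out, with 7 to 8 members. The ranges were 6083 to 6685 for CON liver against muscle and 6739 to 7005 for CON eWAT against muscle.

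Signs turned for some values. In eWAT, *Fbp1* was -0.020 with a pseudocount of 0.1 and -0.045 with median-ratio scaling, and *Pck1* -0.0066 with that scaling and -0.12 over the 15 libraries, where *Pklr* was 0.34. *Gpt* in CON liver against eWAT, -0.92 as reported, was 0.70 with median-ratio scaling, and *Pcx* in the liver against muscle difference was -0.072 without mitochondrial genes. Over the 15 libraries the liver against eWAT difference was -0.0065 for *G6pc* (0.97 as reported) and -0.39 for *Gckr*. With single libraries left out, liver *G6pc* ranged from -0.62 to 0.21 and *Gckr* from -0.69 to 0.25. In eWAT the ranges were -0.24 to 0.53 for *Pck1*, -0.49 to 0.70 for *Fbp1* and -0.40 to 0.34 for *Pklr*. The liver against eWAT difference of *Gckr* ranged from -0.019 to 0.92, and those against muscle from -0.81 to 0.013 for *G6pc*, -0.67 to 0.27 for *Gckr* and -0.045 to 0.91 for *Pck1*. *Gckr* was under the mean needed for a test in eWAT and in muscle, and *G6pc* in muscle.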
